A study of Mus musculus with 18 samples.

Results

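The 36 genes described here are Trp53, which encodes the transcription factor p53, and known targets of p53 outside the Bcl2 family. They were chosen by symbol from a written list, with earlier results of these data known. All 36 were found among the 32451 genes of the mouse mRNA array and were among the 24808 genes tested. In these totals, and in every share of all genes, a probe target without a gene symbol counts as a gene of its own. Male C57BL/6 mice of 6 weeks were fasted for 12 h and then given saline (control) or monocrotaline, a plant pyrrolizidine alkaloid that liver enzymes convert to a reactive pyrrole, by stomach at 270 mg/kg (MCT 270) or 330 mg/kg (MCT 330). Livers were taken 48 h later from 8 mice per group, and RNA was measured on 9 mRNA arrays and 9 microRNA (miRNA) arrays, 3 per group on each platform. The tissue was whole liver, so a lower level in a bulk sample cannot tell fewer cells of a type from less RNA per cell.

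p53 is held at a low level in unstressed cells by the ubiquitin ligase Mdm2, itself a p53 target, and is stabilised by DNA damage and other stress. It then binds sites made of a pair of half-sites near its targets, whose products stop the cell cycle, repair DNA, alter metabolism or start cell death. In liver, p53 targets are known to respond to compounds whose metabolites bind DNA.

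Levels are log2 signal relative to the 75th percentile of signal on the same array, and describe one gene across samples, never one gene against another. The 9 mRNA arrays held 5 distinguishable samples. In each group replicates 2 and 3 lay 0.05 to 0.0678 apart (log2, SD of their difference divided by the square root of 2), less than the 0.170 seen on the same scale when a probe was spotted repeatedly within an array. Their repeat-spot deviations correlated at 0.833 to 0.971. Replicate 1 of MCT 330 lay 0.168 and 0.174 from the other MCT 330 arrays, and probes of the same transcript did not share this difference (correlation 0.0234 and 0.0215 over 2692 pairs of probes, against 0.346 to 0.478 for replicate 1 of the other groups). Each such set was therefore counted as 1 sample, which gave 2 control samples (replicate 1, and replicates 2 and 3), 2 MCT 270 samples divided the same way, and 1 MCT 330 sample. The labels describe the replicates as separate mice, and p-values cover only how far these 5 samples differ, which may be technical. With 1 sample at MCT 330, its variation was taken to equal that of the other groups. MCT 330 arrays shared no scan with the other groups, so scan and dose cannot be told apart for MCT 330. Between 64.0% and 80.9% of spots per array lay well above background.

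RefSeq promoter windows (GRCm38.p6, 250 bases before to 50 bases after a start site) were found for 31 of the 36 genes. The p53 half-site consensus of 10 bases, which reads the same on both strands, stood without a mismatch in 14 of these 31 (45.2%), against 2582 of all 27025 genes in the table (9.55%). A full site, taken as 2 half-sites up to 13 bases apart with at most 2 mismatches and both central cores kept, was in 5 of 31 (16.1%), against 2.47% of all genes. These 5 full sites are shown because they carry the known binding pattern of p53, with the half-sites in capitals and any bases between them in lower case.
Cdkn1a: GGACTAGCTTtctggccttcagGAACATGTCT
Rps27l: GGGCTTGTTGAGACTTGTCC
Ckap2: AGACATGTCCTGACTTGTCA
Sesn1: GCGCTTGGCCttcAAGCTTGTTT
Zfp365: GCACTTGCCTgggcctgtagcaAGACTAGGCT
The Cdkn1a match has 0 mismatches and lies at chr17:29090906-29090937 (plus strand), its first base 73 bases before the upstream one of 2 start sites. The window of the other start site has no match. Only the pair with the fewest mismatches was marked in a window. In Cdkn1a the second half-site is followed directly by a further near-match to the half-site. That adjoining pair, which also meets the definition of a full site, is not marked. The Rps27l match has 1 mismatch (chr9:66946296-66946315, plus strand), and those of Ckap2 (chr8:22186003-22186022, minus strand), Sesn1 (chr10:41887253-41887275, plus strand) and Zfp365 (chr10:67912716-67912747, minus strand) have 2 each. Single half-sites without a mismatch are shown, all in capitals, for 4 genes that rose at MCT 330. Those of Aen, Ddit4l, Rap2b and Trp53, which also rose, and of Abhd4 and Ei24, which did not, are not shown.
Ccng1: GGGCAAGCCT
Mdm2: GAACTTGCCT
Gadd45a: GGGCTAGCCC
Polk: GAACTAGCCT
They lie at chr11:40755462-40755471 for Ccng1, chr10:117710935-117710944 for Mdm2, chr6:67037438-67037447 for Gadd45a and chr13:96519409-96519418 for Polk, all on the minus strand. Rps27l, Sesn1 and Polk also have a second window each, with no match. Of the 14 genes with a perfect half-site 9 rose at MCT 330, and of the 17 without one 9 rose. A match describes letters in a window only, and sites outside it were not searched.

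At MCT 330 most of the p53 targets rose against control. Of 36 genes 21 rose and 1 fell at a Benjamini-Hochberg adjusted p under 0.05 in the limma fit over all genes, where 9.50% of all genes tested rose and 23.9% fell. The median log2 fold change of the 36 was 1.94, and that of all genes was -0.25. By role, 2 of 2 regulators rose, 7 of 9 growth arrest genes, 7 of 10 genes of death and survival signalling, 2 of 3 genes of genome maintenance and ribosome, 2 of 6 of stress metabolism and secreted factors, and 1 of 6 immune, membrane and other genes. Of the 31 genes well above background on all 9 arrays, 16 rose and 1 fell. A limma fit of only such probes called 17 of the 31 higher and 1 lower. Of all genes then tested, fewer than 24808, it called 2334 higher and 6150 lower. The shares of 9.50% and 23.9% also cover genes not well above background on all arrays. The other 5, Eda2r, Psrc1, Rap2b, Zfp365 and Ddit4l, were not well above background on all control arrays. They entered the test through treated arrays, so the filter favoured a rise against control. All 5 rose and are among the 21, which adds no separate support.

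**Figure D1:**
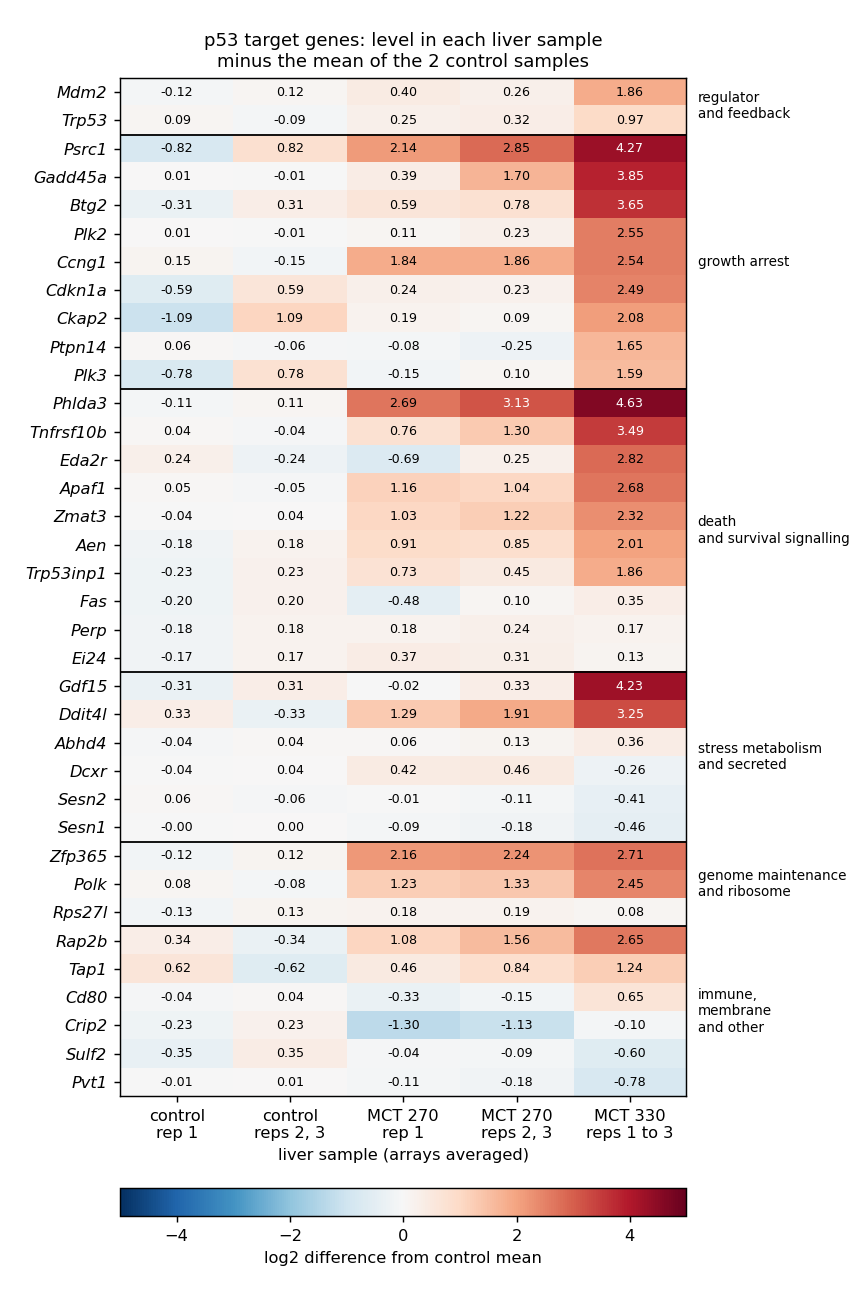
Level of each of the 36 genes in the 5 liver samples minus the mean of the 2 control samples (log2, colour and printed value), grouped by role. The MCT 330 column is the darkest for Phlda3, Psrc1 and Gdf15, and the MCT 270 columns are coloured most for Phlda3, Psrc1, Zfp365 and Ccng1.

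At MCT 270 0 of the 36 genes passed the threshold, nor did any other gene (0.00% higher and 0.00% lower; lowest adjusted p over all genes 0.0594, limma). At an unadjusted p under 0.05, 12 of the 36 lay higher and 1 lower, against 9.81% and 8.79% of all genes. By measured size, 11 lay at least 2-fold higher and 1 at least 2-fold lower, against 3.37% and 3.20% of all genes. For 1 of the 11, Rap2b, the difference was 1.11-fold with control signals raised to the lowest signal above background on each array. Psrc1, Rap2b, Zfp365 and Ddit4l are among both the 12 and the 11. They were not well above background on all control arrays and entered the test through treated arrays. The filter therefore favoured a rise for them here too, and they add no separate support. In 21 of 36 both MCT 270 samples lay above both control samples, which held for 25.4% of all genes, and in 5 of 36 both lay below both, against 27.5%. The median log2 fold change was 0.31 for the 36 and -0.02 for all genes. It was 0.24 for the 31 of the 36 well above background on all 9 arrays. Fits that counted all 9 arrays as samples called 16 to 19 of the 36 and 8890 to 9552 of all genes tested in these fits at MCT 270, but they count the repeated arrays more than once. With normexp background correction 5 of the 36 and 515 of all genes were called (Ccng1, Phlda3, Polk, Zfp365 and Zmat3 of the 36). With only probes well above background on all 9 arrays, 31 of the 36 were tested. Of these 5 were called, and 408 of all genes then tested. Apaf1 was among the 5, and Zfp365 was not tested in this fit.

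**Figure D2:**
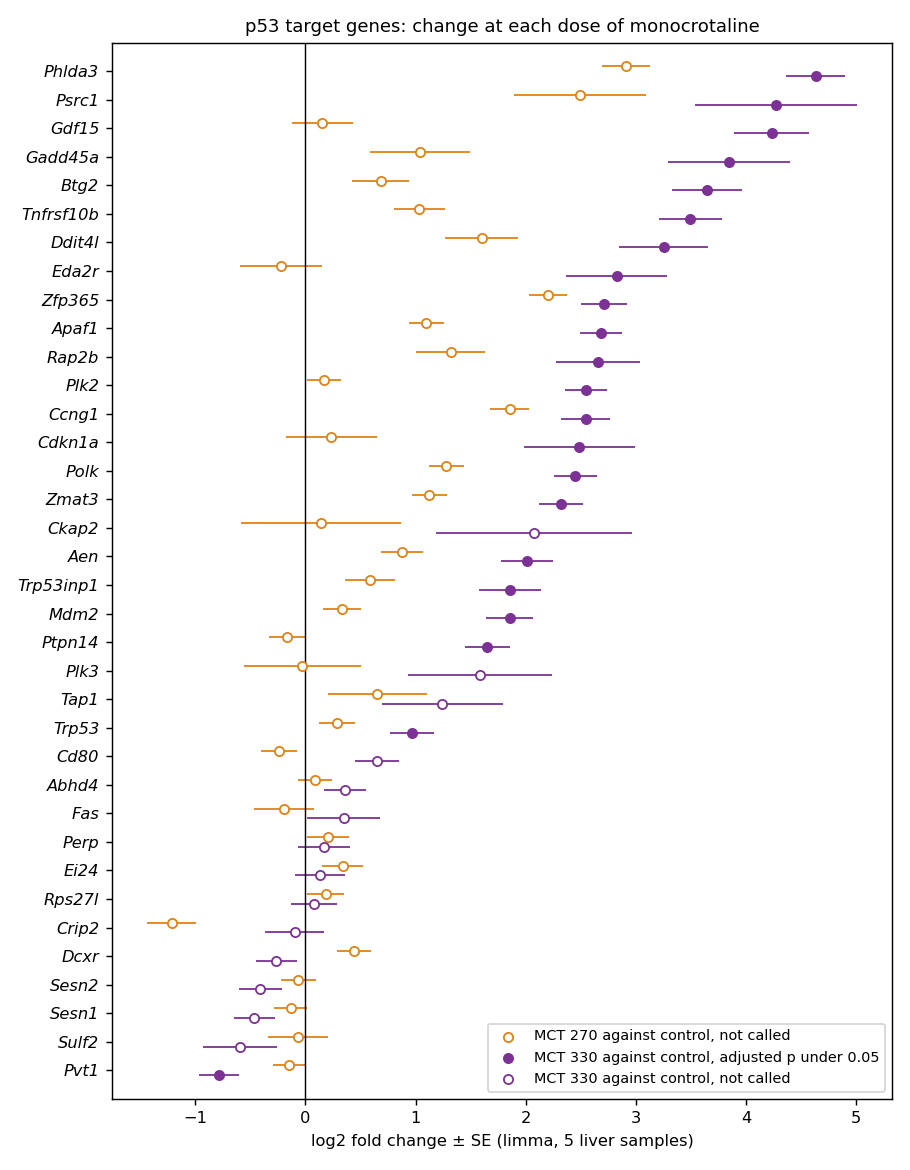
Log2 fold change with its standard error of each gene at MCT 270 (orange) and MCT 330 (purple) against control, with filled points where the adjusted p is under 0.05. No MCT 270 point is filled, and 22 MCT 330 points are, from 4.63 for Phlda3 to -0.78 for Pvt1.

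Against MCT 270, 18 of 36 genes rose at MCT 330 and 0 fell, where 5.04% of all genes rose and 17.1% fell. This count rests on both MCT 270 samples: without replicate 1 of MCT 270, or without the sample of its replicates 2 and 3, 0 of 36 and 0 of all genes were called (17 and 19 of 36 at an unadjusted p under 0.05). The 3 groups' means were ordered control, MCT 270, MCT 330 from low to high in 22 of 36 genes, and in 19.6% of all genes; the reverse order held in 4 of 36, against 34.7%. The comparisons with control share the same control samples. Of the 18, Eda2r was well above background on 1 of 3 MCT 270 arrays and entered the test through MCT 330 alone. The filter favoured its rise, so it adds no separate support. Of the 31 genes well above background on all 9 arrays, 16 rose against MCT 270.

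The regulators Trp53 and Mdm2 were both higher at MCT 330. Trp53 lay at -1.18 and -1.37 in the control samples, -1.02 and -0.96 at MCT 270 and -0.31 at MCT 330, and the groups did not overlap. Its change was 0.97 ± 0.20 at MCT 330 (SE, log2, adjusted p = 0.0254) and 0.28 ± 0.16 at MCT 270 (adjusted p = 0.411); the first was not called without replicate 1 of MCT 270 (adjusted p = 0.0819) without the sample of its replicates 2 and 3 (0.0795), or with no filter on dim probes (0.0674). Mdm2 lay at 1.41 and 1.64 in control, 1.93 and 1.78 at MCT 270 and 3.38 at MCT 330. It rose 3.62-fold at MCT 330 (1.86 ± 0.21, adjusted p = 0.00937), and rose against MCT 270 as well (1.53 ± 0.21, adjusted p = 0.0216).

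Among the growth arrest genes, Cdkn1a, the cyclin-dependent kinase inhibitor that is the best known p53 target, was high in the MCT 330 sample alone. It lay at 0.37 and 1.55 in the control samples, which were 1.18 apart, at 1.2 and 1.19 at MCT 270, between the controls, and at 3.45 at MCT 330. The change at MCT 330 was 2.49 ± 0.51 (5.60-fold, adjusted p = 0.0247). It was not called without replicate 1 of MCT 270 (adjusted p = 0.0546), without the sample of replicates 2 and 3 (0.0510), with no filter on dim probes (0.0632), or as the mean of its 2 probes (0.85, adjusted p = 0.138). The second probe, for another transcript variant, lay at -0.80 ± 0.24 at MCT 330 (adjusted p = 0.0648 in the fit of single probes).

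Ccng1, which encodes cyclin G1, a regulator of Mdm2 activity, was already higher at the lower dose. Its level was 0.03 and -0.27 in control, 1.72 and 1.74 at MCT 270 and 2.42 at MCT 330. All treated samples lay above both controls, by 1.85 ± 0.18 at MCT 270 (3.61-fold, adjusted p = 0.0809) and 2.54 ± 0.22 at MCT 330 (5.83-fold, adjusted p = 0.00863). The difference between the doses, 0.69 ± 0.22, did not pass (adjusted p = 0.0872).

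Btg2, an antiproliferative partner of the mRNA deadenylation machinery, lay at 0.91 and 1.54 in control, 1.81 and 2.00 at MCT 270 and 4.87 at MCT 330. It rose 12.5-fold at MCT 330 against control (3.65 ± 0.32, adjusted p = 0.00863) and 7.81-fold against MCT 270 (adjusted p = 0.0203). Gadd45a, a stress sensor of growth arrest and DNA repair, differed between the MCT 270 samples: it lay at -1.51 and -1.54 in control, -1.14 and 0.17 at MCT 270 and 2.32 at MCT 330. It rose 14.4-fold at MCT 330 (3.85 ± 0.55, adjusted p = 0.0128). The polo-like kinase gene Plk2 lay at -1.47 and -1.49 in control, -1.37 and -1.24 at MCT 270 and 1.07 at MCT 330. It rose 5.84-fold at MCT 330 against control (adjusted p = 0.00863) and 5.18-fold against MCT 270 (adjusted p = 0.0203), while its MCT 270 difference from control was 0.17 ± 0.16. Ptpn14, a phosphatase that restrains the growth regulator Yap, lay at -1.51 and -1.64 in control, -1.66 and -1.83 at MCT 270, below both controls, and 0.07 at MCT 330. It rose by 1.65 ± 0.20 (adjusted p = 0.0101), and by 1.82 ± 0.20 against MCT 270 (adjusted p = 0.0203).

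Psrc1, a microtubule-associated gene of the mitotic spindle, was not well above background on any control array. Its measured levels were -6.39 and -4.76 in control, -3.43 and -2.73 at MCT 270 and -1.30 at MCT 330. A floor was set from the lowest signal above background on each control array, or the gene's own signal where that was higher. Against it, Psrc1 was 4.52-fold higher at MCT 270 (limma adjusted p = 0.147, group means -5.57 and -3.08). At MCT 330 it was 15.5-fold higher (limma adjusted p = 0.0173, mean -1.30). The floor does not cap the true control level, so these folds are not lower bounds. With normexp the MCT 330 difference was 2.06 (log2). Plk3 and Ckap2, a cytoskeleton-associated gene of mitosis, were not called at MCT 330 in these samples: Plk3 differed by 1.59 ± 0.65 (adjusted p = 0.124) and Ckap2 by 2.08 ± 0.89 (adjusted p = 0.136). Both had control samples far apart, -0.60 and 0.95 for Plk3 and -4.87 and -2.68 for Ckap2, against 1.77 and -1.70 at MCT 330. Without the control sample of replicates 2 and 3 both were called (2.36 and 3.17, both adjusted p = 0.0181), and Ckap2 also without control replicate 1 (0.98, adjusted p = 0.0387).

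**Figure D3:**
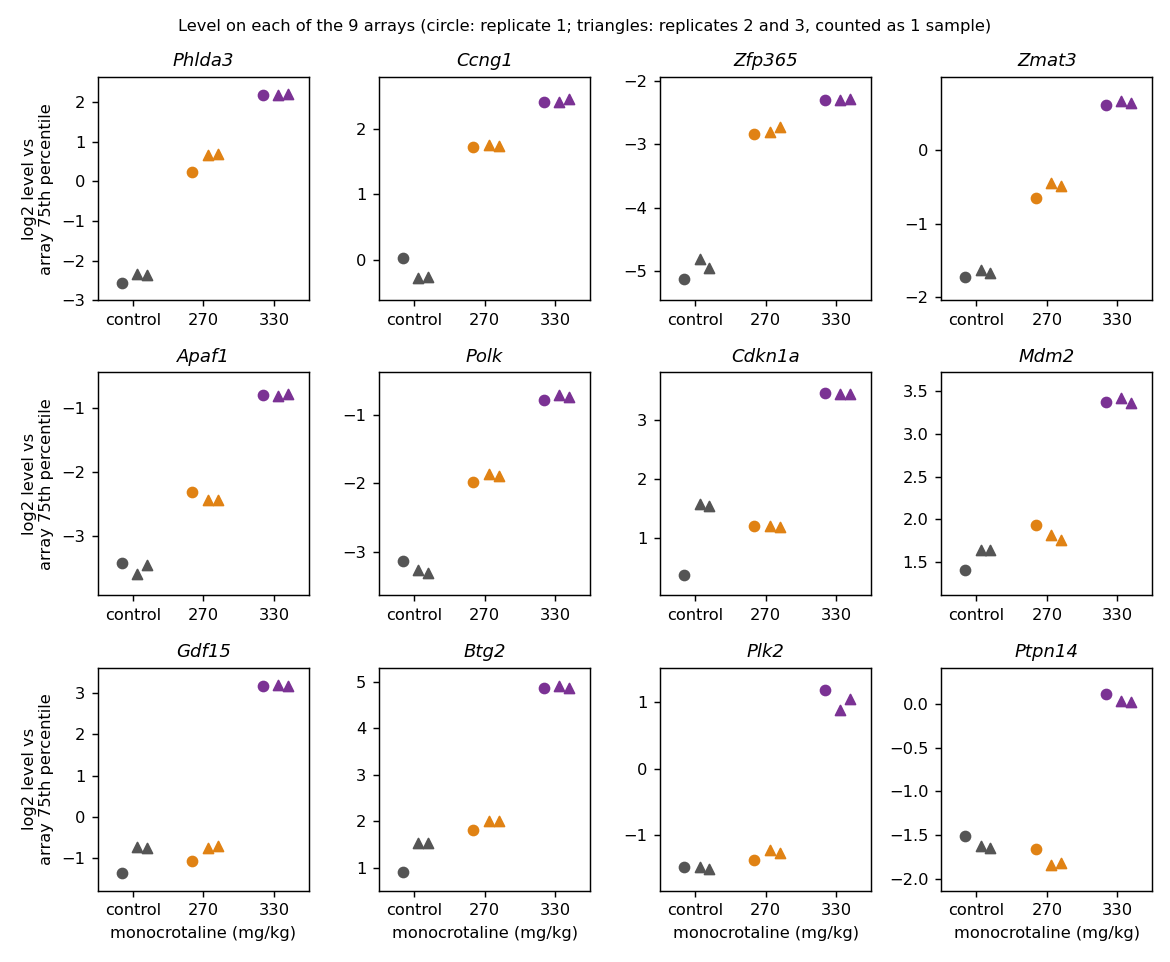
Level (log2 relative to the array's 75th percentile) of 12 genes on each of the 9 arrays by dose, with circles for replicate 1 and triangles for replicates 2 and 3. In Phlda3, Ccng1, Zfp365, Zmat3, Apaf1 and Polk the MCT 270 arrays lie between the control and MCT 330 arrays, and in Gdf15, Plk2 and Ptpn14 the MCT 270 arrays lie near the control arrays.

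Phlda3, which encodes a repressor of Akt survival signalling, had the largest measured log2 fold change of the 36 at both doses. Psrc1, not well above background in control, was not ranked against Phlda3. Phlda3 lay at -2.56 and -2.35 in control, 0.23 and 0.67 at MCT 270 and 2.18 at MCT 330, with no overlap between groups. The difference was 7.52-fold at MCT 270 (2.91 ± 0.22, adjusted p = 0.0709) and 24.8-fold at MCT 330 (4.63 ± 0.27, adjusted p = 0.00821), and MCT 330 was above MCT 270 by 1.72 ± 0.27 (adjusted p = 0.0233). Within the scan that held control and MCT 270 replicates 1 and 2, the MCT 270 value was 2.90 ± 0.22 (adjusted p = 0.0669).

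Apaf1, the scaffold of the caspase-activating apoptosome, lay at -3.42 and -3.52 in control, -2.32 and -2.44 at MCT 270 and -0.79 at MCT 330. It rose 6.42-fold at MCT 330 (adjusted p = 0.00863), and MCT 270 lay 2.14-fold above control (adjusted p = 0.0937). Zmat3, an RNA-binding zinc finger protein, lay at -1.72 and -1.65 in control, -0.65 and -0.47 at MCT 270 and 0.63 at MCT 330, and rose 4.99-fold at MCT 330 (adjusted p = 0.00863). In both genes all treated samples lay above all controls, and MCT 330 was above MCT 270 (1.59 ± 0.19 for Apaf1, adjusted p = 0.0203; 1.19 ± 0.20 for Zmat3, adjusted p = 0.0248). Tnfrsf10b, the mouse receptor for the death ligand TRAIL, lay at -2.47 and -2.56 in control, -1.75 and -1.21 at MCT 270 and 0.98 at MCT 330, and rose 11.3-fold at MCT 330 (3.49 ± 0.28, adjusted p = 0.00863). Aen, an exonuclease of apoptosis, lay at 1.32 and 1.68, 2.41 and 2.35, and 3.51 in the same order, and rose 4.03-fold at MCT 330 (adjusted p = 0.00952). Its second probe gave nearly the same value, 2.05 ± 0.20 (adjusted p = 0.00901).

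Trp53inp1, a nuclear stress protein that also acts in autophagy, lay at 1.56 and 2.01 in control, 2.51 and 2.23 at MCT 270 and 3.64 at MCT 330. It rose 3.63-fold at MCT 330 (1.86 ± 0.28, adjusted p = 0.0137). Its 2 probes disagreed in size and, at MCT 270, in direction: the other probe lay at -0.59 ± 0.22 at MCT 270 (adjusted p = 0.243) and 0.75 ± 0.27 at MCT 330 (adjusted p = 0.0943). Eda2r, a receptor for an ectodysplasin ligand, was not well above background on any control array and lay well above it on 1 of 3 MCT 270 arrays. Against the floor described for Psrc1, Eda2r was 3.03-fold higher at MCT 330 than in control (limma adjusted p = 0.0154, group means -6.60 and -3.78). With normexp that difference was 0.79 (log2), so the fold is not a lower bound. At MCT 270 Eda2r lay below the floor, and no fold is given. Without control replicate 1 the second probe of Eda2r became the brightest and took the place of the first. It was not called there, with 2.97 at MCT 330 against control, and the first probe was not tested in that setting. Its second probe was likewise not well above background on any control array. Fas, Perp and Ei24, a death receptor, a desmosome membrane protein and an endoplasmic reticulum protein, did not pass in any comparison, with log2 differences of 0.35, 0.17 and 0.13 at MCT 330.

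The secreted and metabolic genes divided sharply. Gdf15, a circulating stress cytokine of the TGF-beta family, lay at -1.37 and -0.74 in control and at -1.07 and -0.73 at MCT 270, where the groups overlapped, and at 3.18 at MCT 330. It rose 18.8-fold at MCT 330 against control (4.23 ± 0.34, adjusted p = 0.00863) and 16.9-fold against MCT 270 (4.08 ± 0.34, adjusted p = 0.0203), and its difference at MCT 270 was 0.15 ± 0.28 (adjusted p = 0.794). Ddit4l, an inhibitor of mTOR signalling, was well above background on 1 of 3 control arrays and rose by 3.25 ± 0.40 at MCT 330 (limma adjusted p = 0.0102). Its levels were -4.72 and -5.38, -3.76 and -3.14, and -1.80, so this change rests in part on signal near background. Over 20 other settings the rise was called in all 20 and was 1.65 in the lowest. The stress-induced mTOR inhibitors Sesn1 and Sesn2 did not pass and lay slightly lower at MCT 330 (-0.46 ± 0.19, adjusted p = 0.119, and -0.41 ± 0.19, adjusted p = 0.165). Dcxr, a carbonyl reductase, lay at 2.40 and 2.47 in control, 2.86 and 2.90 at MCT 270 and 2.18 at MCT 330, and no difference passed (0.44 ± 0.15 at MCT 270, adjusted p = 0.237). Abhd4, a lipase, differed by 0.36 ± 0.19 at MCT 330 (adjusted p = 0.198).

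Both DNA maintenance genes rose. Zfp365, which protects fragile sites of the genome, lay at -5.12 and -4.89 in control, -2.84 and -2.76 at MCT 270 and -2.29 at MCT 330. It was well above background on 1 of 3 control arrays, so its measured differences from control rest in part on signal near background. They were 2.20 ± 0.17 at MCT 270 (adjusted p = 0.0709) and 2.71 ± 0.21 at MCT 330 (adjusted p = 0.00863), and with normexp 0.89 (adjusted p = 0.0432) and 1.30 (adjusted p = 0.00587). The difference between doses, 0.51 ± 0.21, did not pass (adjusted p = 0.146). Polk, the translesion DNA polymerase kappa, lay at -3.13 and -3.29 in control, -1.98 and -1.88 at MCT 270 and -0.76 at MCT 330. It rose 5.47-fold at MCT 330 (adjusted p = 0.00863) and 2.25-fold against MCT 270 (adjusted p = 0.0250). Its second probe, well above background on only 1 of 3 control arrays, gave 2.56 ± 0.34 at MCT 330 (adjusted p = 0.0117). Rps27l, a ribosomal protein gene with a near-identical paralog, ranged from 5.96 to 6.28 over the 5 samples and did not pass.

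Of the immune, membrane and remaining genes, Rap2b, a small GTPase, was not well above background on any control array. Against the floor described for Psrc1, Rap2b was 2.79-fold higher at MCT 330 (limma adjusted p = 0.0127, group means -6.55 and -3.90). At MCT 270 it was 1.11-fold higher (limma adjusted p = 0.145, mean -5.23). With normexp the MCT 330 difference was 0.59 (log2), so these folds are not lower bounds. Crip2, a LIM domain protein, was the only one of the 36 that lay at least 2-fold lower at MCT 270: it lay at 4.24 and 4.71 in control, 3.18 and 3.34 at MCT 270 and 4.38 at MCT 330, between the controls. Its MCT 270 difference was -1.21 ± 0.22 (adjusted p = 0.114), and MCT 330 was higher than MCT 270 by 1.12 ± 0.27 (adjusted p = 0.0477). The T cell costimulator Cd80 lay at -3.37 and -3.29 in control, -3.65 and -3.48 at MCT 270 and -2.67 at MCT 330. MCT 330 was above MCT 270 (0.89 ± 0.20, adjusted p = 0.0408) but not above control by the threshold (0.65 ± 0.20, adjusted p = 0.0637), and its second probe lay at -0.27 ± 0.26 at MCT 330 (adjusted p = 0.456) and differed by -0.02 ± 0.26 between the doses (adjusted p = 0.972). The call between the doses was made in 15 of 21 settings and not for the mean of both probes (0.44, adjusted p = 0.185), with no filter on dim probes (0.101), without MCT 270 replicate 1 (0.216), replicate 3 (0.0533) or the sample of replicates 2 and 3 (0.137), or without MCT 330 replicate 1 (0.0533). Pvt1, a long non-coding RNA gene beside Myc, was the only one of the 36 that fell, by 0.78 on the log2 scale at MCT 330 (SE 0.19, adjusted p = 0.0349), from -0.90 and -0.88 to -1.68. That call was lost when any 1 of the control or MCT 270 samples was left out (adjusted p 0.0557 to 0.111) and with no filter on dim probes (0.0851). Its second probe had the opposite sign, 1.14 ± 0.43 (adjusted p = 0.101), and the mean of both gave 0.18 (adjusted p = 0.625). The antigen peptide transporter Tap1 and the sulfatase Sulf2 did not pass (1.24 ± 0.55, adjusted p = 0.145, and -0.60 ± 0.34, adjusted p = 0.228). Without control replicate 1 both were called, Tap1 at 1.86 (adjusted p = 0.0256) and Sulf2 at -0.95 (adjusted p = 0.0398).

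**Figure D4:**
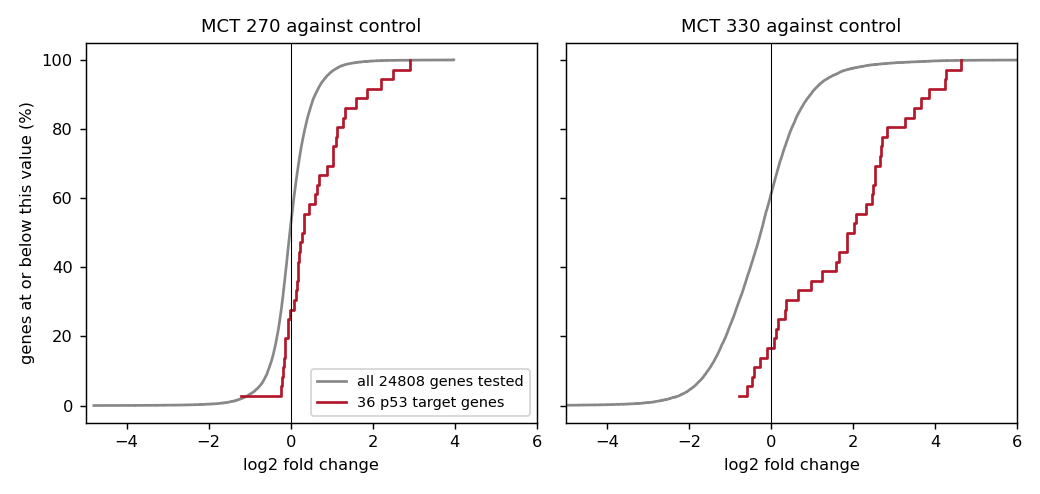
Cumulative share (percent) of all 24808 genes tested (grey) and of the 36 p53 target genes (red) by log2 fold change, at MCT 270 on the left and MCT 330 on the right. At MCT 330 the medians lie at 1.94 for the 36 and -0.25 for all genes, and at MCT 270 at 0.31 and -0.02.

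The direction of single genes at MCT 330 is relative to the array's 75th percentile, on which the median of all genes shifted by -0.25. Quantile normalization shifted it by -0.05 and normexp followed by quantile normalization by -0.03, and the division of all calls moved from 2358 higher and 5934 lower to 3084 and 4284, and to 3652 and 3905. For the 36 genes the calls were 22 higher and 1 lower with quantile normalization and 25 higher and 1 lower with normexp. Dim genes had smaller fold changes with normexp: 1.30 for Zfp365, 0.59 for Rap2b, 0.79 for Eda2r and 2.06 for Psrc1 at MCT 330, all called.

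Other genes of the pathway were read against the same shares of all genes at MCT 330, 9.50% risen and 23.9% fallen. Of 24 regulators of p53 tested, 1 rose and 2 fell at MCT 330: Ppp1r13l, an inhibitor of p53 binding, rose by 1.34 ± 0.23 (adjusted p = 0.0165), Trp73, a p53 relative, fell by 1.86 (SE 0.20, adjusted p = 0.00895) and the kinase gene Hipk2 fell by 1.26 (SE 0.20, adjusted p = 0.0145). Of 29 further p53 targets 7 rose (24.1%) and 4 fell (13.8%). Gtse1, a p53-binding cell cycle gene, rose by 2.92 ± 0.25 (adjusted p = 0.00863). The growth factor binding gene Igfbp3 fell by 2.63 (SE 0.23, adjusted p = 0.00863), and Kitl, the ligand of the receptor Kit, fell by 2.46 (SE 0.21, adjusted p = 0.00863). Of 13 cell cycle genes repressed through the DREAM complex, which p53 is known to engage through Cdkn1a, 0 rose and 1 fell, the mitotic cyclin gene Ccnb1, which fell by 3.15 (SE 0.31, adjusted p = 0.00865). Next by p were the replication gene Mcm5 at 1.26 ± 0.41 (adjusted p = 0.0739), the cyclin gene Ccna2 at -1.84 ± 0.69 (adjusted p = 0.103) and the survivin gene Birc5 at -2.22 ± 0.86 (adjusted p = 0.110). The median change of the 13 was -1.37 at MCT 270 and -1.43 at MCT 330, but their summed level (linear scale, relative to the 75th percentile) differed between the control samples, 3.56 and 13.3, against 2.33 and 2.60 at MCT 270 and 2.41 at MCT 330. At MCT 270 0 genes of these 3 lists passed.

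Markers of liver cell types were counted at MCT 330 against the same shares of all genes, 9.50% risen and 23.9% fallen. Summed levels of 11 neutrophil markers were 18.1 and 19.6 in control, 16.4 and 15.4 at MCT 270 and 45.7 at MCT 330, where 5 rose and 1 fell. Of 11 monocyte and macrophage markers 7 rose at MCT 330 and 0 fell, with summed levels of 102 to 127 over the 5 samples, of which Fn1 alone made up at least 83.6%. Summed levels of 10 sinusoidal endothelial markers went from 38.1 and 36.8 to 17.4 and 14.2 at MCT 270 and 9.12 at MCT 330, where 8 fell. Of 10 Kupffer cell markers 5 fell, and of 10 stellate cell markers 7 fell and 1 rose. Of 12 hepatocyte markers 3 fell, near the share of all genes, and 0 rose, with summed levels of 2916 and 3296 in control and 2286 at MCT 330, so the labelled tissue carried its defining genes in every sample. Cholangiocyte markers (1 of 7 rose) and T, B and dendritic cell markers (3 of 11 rose and 3 fell) were also measured. The part of these cells in the changes of the p53 targets was not tested.

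The miRNA arrays measured 15 miRNAs known to depend on p53, of which 11 were above the signal limit and tested among 490 mouse probes. The miR-34 family, the best known p53-dependent miRNAs, is shown with RefSeq mature sequences (GRCm38.p6) because its arms differed in these samples, with the seed (bases 2 to 8) in capitals.
miR-34a-5p: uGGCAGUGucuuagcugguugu
miR-34b-5p: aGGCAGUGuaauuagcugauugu
miR-34b-3p: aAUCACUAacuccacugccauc
miR-34c-3p: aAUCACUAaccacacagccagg
The first pair share 1 seed, and the last pair share another. miR-34a lies at chr4:150068473-150068494 (plus strand), and miR-34b and miR-34c lie close together on the minus strand of chromosome 9, with miR-34b-3p at chr9:51103574-51103595 and miR-34c-3p at chr9:51103044-51103065.

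miR-34c-3p was higher at MCT 270 and not at MCT 330. Its log2 signal on replicates 1 to 3 was 6.76, 7.11 and 7.4 in control, 9.70, 9.02 and 8.67 at MCT 270 and 7.46, 7.61 and 6.96 at MCT 330, so all MCT 270 arrays lay above all others. It rose by 2.04 ± 0.30 at MCT 270 (limma over 490 probes, adjusted p = 0.00271), the only listed miRNA called there, where 15.9% of probes rose and 10.8% fell. MCT 330 was lower than MCT 270 by a difference of -1.79 ± 0.30 (adjusted p = 0.0187), again the only listed call, where 1.22% rose and 4.90% fell; without MCT 330 replicate 1 or 2 this was not called (adjusted p 0.0580 and 0.0645). miR-34a-5p lay at 7.88, 8.67 and 8.08 in control, 8.03, 9.35 and 9.70 at MCT 270 and 9.08, 9.42 and 9.69 at MCT 330. All MCT 330 arrays lay above all control arrays, but the change of 1.19 ± 0.41 did not pass (adjusted p = 0.110), and none of the 11 tested was called at MCT 330, where 0.204% of probes rose and 5.10% fell. At an unadjusted p under 0.05, 1 of the 11 passed at MCT 330, miR-34a-5p. Without MCT 270 replicate 1, which lay with the controls, miR-34a-5p was called at both doses (1.32, adjusted p = 0.0192, and 1.18, adjusted p = 0.0261). miR-34b-3p, which shares the seed of miR-34c-3p, had means of 8.82 ± 0.245 in control, 9.15 ± 0.53 at MCT 270 and 8.26 ± 0.25 at MCT 330 (SD, n = 3 arrays), and no difference passed by limma.

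**Figure D5:**
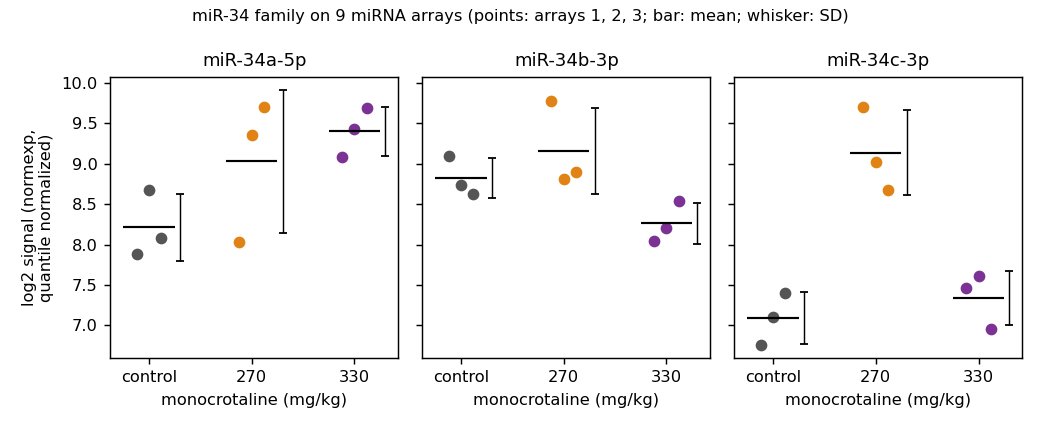
Log2 signal of 3 miR-34 arms on the 9 miRNA arrays by dose, with points for arrays, a bar for the mean and a whisker for the SD. The MCT 270 points of miR-34c-3p lie between 8.67 and 9.70, above all other points of that panel, while those of miR-34a-5p spread from 8.03 to 9.70.

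The other tested miRNAs of the list did not pass in any comparison. miR-192-5p, miR-194-5p and miR-215-5p, which p53 is known to induce, differed at MCT 330 by -0.24 ± 0.25, 0.13 ± 0.16 and 0.14 ± 0.24. miR-15a-5p and miR-107-3p differed by 0.17 ± 0.30 and -0.12 ± 0.26, and miR-145a-5p by 0.36 ± 0.23. miR-143-3p (7.56 against 11.1 and 11.2) and miR-16-5p (9.90 against 12.1 and 12.4) were far lower on replicate 1 of MCT 270 than on its other arrays, and differed by -0.15 ± 0.80 and 0.19 ± 0.54 at MCT 330. miR-34a-3p, miR-34b-5p, miR-34c-5p and miR-200c-3p were under the signal limit and were not tested.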

How the data were processed

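Liver RNA of 3 groups was measured on 9 Agilent mRNA arrays and 9 miRNA arrays. The authors deposited intensity per spot, which the scanner software (Agilent Feature Extraction, version 11.0.1.1) had corrected for background and detrended, per the file headers; the miRNA table holds, per the file headers, intensities with replicate spots already combined and a ratio the authors normalized per array. Here log2 processed signal was scaled to each array's 75th percentile, and outlier spots were dropped, as were 173 spots of MCT 330 replicate 1 that differed by over 1 log2 from replicates 2 and 3. A probe entered if some group had it well above background throughout, and a gene took its brightest probe. Of 33258 systematic names 21464 matched a symbol. Groups were compared with limma 3.58.1 in R 4.3.3 (lmFit, eBayes, 1 fit of the 5 samples), Benjamini-Hochberg over all genes. miRNA signals took normexp (offset 50) and quantile normalization, with at least 30 over background on all arrays of a group. The fit and the array comparison were tested on simulated data. The members, lists and named genes were chosen with earlier results of these data known: each of the 36 is accounted for, and at most 4 genes of each other list are named, the called ones with the largest change at MCT 330 or, under 2 calls, those with the smallest p. A further result that this rule selects is not reported here. Same-numbered arrays of different groups were not paired.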

Additional observations from a re-analysis of the deposited data

How the results depend on the processing

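The direction of every called gene at MCT 330 was kept under all alternatives except Pvt1, which had 0.18 with the mean of its probes. At MCT 330 the count of p53 targets called stayed between 18 and 31 (22 reported). Counts of calls moved as follows, with the cause not tested beyond the changed number of samples or genes. With the 9 arrays as 9 samples 19 p53 targets and 9552 genes were called at MCT 270, 18087 genes at MCT 330, and 31 and 16140 between the doses. With a replicate block added, the counts were 16 and 9321, 17942, and 32 and 15972; the numbers do not pair the arrays (correlations of deviations 0.0129 to 0.0762), and the block changed no call of a miRNA. With the scan as a random block (chosen after seeing the data) they were 18 and 8890, 18806, and 32 and 17012. With the scan as a block over the 6 control and MCT 270 arrays 13 and 4730 were called at MCT 270, with normexp 5 and 515, and with probes above background on all 9 arrays 5 and 408. With no filter 3654 genes were called at MCT 330, and 0 p53 targets and 0 genes between the doses (23 targets at an unadjusted p under 0.05). Leaving out 1 array or sample gave 0 p53 targets and 0 genes at MCT 270, 19 to 23 and 3685 to 8603 at MCT 330, and 0 to 21 and 0 to 7169 between the doses. The counts of 3685 (and of 4060) genes at MCT 330 and of 0 between the doses came without MCT 270 replicate 1 (and without its replicates 2 and 3). For the miRNAs the authors' normalized values gave 2 calls at MCT 270 and 2 between the doses in place of 1 and 1, miR-215-5p being the second; leaving out 1 array gave 1 to 2, 0 to 1 (MCT 330) and 0 to 1. Further settings chosen after seeing the data, MCT 330 from replicate 1 alone (22 and 17 p53 targets called against control and MCT 270) and the scan of control and MCT 270 replicates 1 and 2 alone (0 at MCT 270), changed no count by over 1.5 times. The number of arrays limits the precision, and MCT 330 rests on 1 sample.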
